A study of Mus musculus with 12 samples.

Results

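Doxorubicin in either of its forms was compared with buffer in subcutaneous C26 tumours, with the 8 drug-treated tumours taken as 1 group against 4 buffer-treated ones, and as an ordered trend over the 3 treatment groups. Tumours were placed in groups by treatment label alone, and these 12 arrays are all 12 of the series. The comparison itself was chosen with earlier results of these data known. C26 is a colon carcinoma line of mouse origin, and its cells had been injected under the flank skin of Balb/c mice aged 6 weeks. Treatment was given on day 8, at a tumour size of about 50 mm3, and tumours were collected 48 h later. The 4 mice of the PBS group received phosphate-buffered saline, the 4 of the Dox group received free doxorubicin, and the 4 of the CP-Dox group received doxorubicin attached to a chimeric polypeptide carrier. Doses are not given in the sources used here, and no group received the carrier without the drug, so in the pooled comparison drug, carrier and dose cannot be told apart. All groups shared the tumour line, the host strain and the time of collection. Each array measured total RNA of tumour tissue from 1 mouse, so signals of cancer cells, host cells and blood are mixed.

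Doxorubicin inserts into DNA and blocks topoisomerase II after it has cut both strands, and the breaks activate the p53 protein. p53 then binds paired short motifs near its target genes and induces genes of cell cycle arrest such as Cdkn1a, its own inhibitor Mdm2, and genes of cell death. Cycling cells that arrest express fewer genes of DNA replication and nucleotide supply, many of which are driven by E2F factors, while Myc acts through E-boxes on genes of ribosome production and metabolism. Doxorubicin is also toxic to dividing precursors in the bone marrow, including those of red blood cells, which make haemoglobin under control of GATA1.

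Stretches of promoter are shown for 3 genes of the results: Cdkn1a, the p53 target that encodes the cell cycle inhibitor p21, Cdk4, a kinase of entry into S phase whose values were in full order over the 3 groups, and Alas2, the called gene with the larger fall in the pooled comparison. Each is the 250 bases before the start of transcription in RefSeq (GRCm38.p6). Capitals mark a match to the paired p53 motif in Cdkn1a, E-boxes in Cdk4 and a GATA site, read on the other strand, in Alas2.
Cdkn1a, chr17:29090729-29090978, plus strand: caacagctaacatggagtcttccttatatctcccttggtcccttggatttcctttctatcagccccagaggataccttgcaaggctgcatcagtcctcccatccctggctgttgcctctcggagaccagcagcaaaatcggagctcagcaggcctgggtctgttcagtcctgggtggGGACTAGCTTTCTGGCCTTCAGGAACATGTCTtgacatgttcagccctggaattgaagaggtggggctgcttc
Cdk4, chr10:127063285-127063534, plus strand: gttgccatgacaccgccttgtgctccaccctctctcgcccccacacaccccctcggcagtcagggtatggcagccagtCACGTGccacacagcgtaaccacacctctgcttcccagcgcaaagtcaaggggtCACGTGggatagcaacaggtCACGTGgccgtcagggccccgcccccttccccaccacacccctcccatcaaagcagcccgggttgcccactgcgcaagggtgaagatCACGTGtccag
Alas2, chrX:150547167-150547416, plus strand: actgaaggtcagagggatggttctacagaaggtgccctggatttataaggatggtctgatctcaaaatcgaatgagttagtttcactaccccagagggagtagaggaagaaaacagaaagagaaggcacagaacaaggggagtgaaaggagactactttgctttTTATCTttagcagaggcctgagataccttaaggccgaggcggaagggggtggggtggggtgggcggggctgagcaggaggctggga
The p53 match of Cdkn1a lies 73 to 42 bases before the start, with the bases between its parts in capitals too. The bases that follow it, tgacatgttc, miss the pattern of a part at their first letter only and stay in lower case. The capitals may therefore not mark the whole site. The 4 E-boxes of Cdk4 begin 172, 118, 98 and 11 bases before the start, and the GATA site of Alas2 begins 86 bases before it. Cdkn1a has further transcription starts that are not shown.

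Values are the authors' log2 RMA signals, and a difference of 1 is a 2-fold difference. Of 22626 probe sets, 20380 carry a single gene symbol and stand for 12393 genes, each represented by its brightest probe set. A gene was called where the limma adjusted p (Benjamini-Hochberg over all probe sets, two-sided) was under 0.05. The arrays had medians from 7.10 to 7.22, and CP-Dox replicate 2 stood apart, with a mean correlation of 0.956 with its own group against 0.975 to 0.991 for every other array. Its list means for interferon genes and for mitosis genes, -1.68 and -1.57 relative to PBS, were the lowest of all 12 arrays. Keratinocyte and skin markers, 18 genes, averaged 2.61 and 3.82 above PBS in CP-Dox replicates 1 and 3 and at most 0.13 above it in the other arrays. Skeletal muscle markers ranged from -2.21 to 2.96 within the PBS group alone. Of 16 colon epithelial markers, none was called on the slope, and their mean signals over the 12 arrays ran from 4.25 for Cdx1 and 4.31 for Fabp1 to 10.35 for Krt8. No detection calls were used, so whether the dim ones were expressed was not settled.

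The pooled comparison asked which genes doxorubicin moved whatever its form. The 2 genes called were both lower in the drug-treated tumours, and both belong to red blood cells: Hbb-b2, an adult beta-globin gene, and Alas2, the erythroid enzyme that starts haem synthesis. They are 0.0161% of the genes tested, with 0 called higher. At an unadjusted p under 0.05 there were 2616 probe sets (11.6%), 1035 higher and 1581 lower. In this fit the difference between the forms counts as spread, so it favours genes that moved alike under both.

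Hbb-b2 signals were 6.23, 6.72, 6.63 and 6.31 in the PBS tumours, 5.01, 5.04, 5.09 and 5.16 in the Dox tumours and 4.73, 5.29, 5.10 and 5.69 in the CP-Dox tumours. All 8 drug values lay below all 4 PBS values. Hbb-b2 fell by 1.33 ± 0.15 on the log2 scale (SE, n = 8 and 4, adjusted p = 0.0200 with limma), which is 2.52-fold lower. Its other probe set was lower too, by a log2 difference of -2.40 ± 0.34 (adjusted p = 0.0719).

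For Alas2 the PBS values were 6.52, 7.15, 6.55 and 7.17, the Dox values 5.22, 5.11, 5.07 and 5.20, and the CP-Dox values 4.94, 5.15, 5.26 and 6.11. The groups did not overlap, and the drug value nearest to PBS was CP-Dox replicate 4. Alas2 fell by 1.59 ± 0.20 (SE, adjusted p = 0.0327), which is 3.01-fold. Neither gene was shown to differ between the forms: CP-Dox minus Dox was 0.12 for Hbb-b2 (95% interval -0.27 to 0.51) and 0.22 for Alas2 (-0.29 to 0.73). Both were read from probe sets among the dimmest 40%. In the bright globin probe sets described below, CP-Dox minus Dox ran from 0.89 to 1.21, with no call (limma adjusted p from 0.439 to 0.486).

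Both calls were lost when CP-Dox replicate 3, any Dox array or any PBS array was left out, and 1 probe set was called without CP-Dox replicate 1 or 2. Without CP-Dox replicate 4 there were 7 calls, all lower.

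The bright globin probe sets, chosen after their values were seen, match several globin genes at once and have no single symbol. One for Hba-a1 and Hba-a2 read 12.41, 12.99, 12.59 and 13.23 in PBS and 9.17, 8.56, 9.05 and 9.56 in Dox. In CP-Dox it read 8.46, 9.62 and 9.84 in replicates 1 to 3 but 12.55 in replicate 4, within the PBS range. The pooled difference of this probe set was -3.20 ± 0.60 (adjusted p = 0.199), and -3.62 without that array. The other 2 such alpha-globin probe sets differed by -3.65 and -3.23 and the shared beta-globin one by -2.95, each with the same adjusted p. In the fit that gives each form its own mean, described below, all of these bright probe sets passed (limma adjusted p = 0.0347 each). The 2 dim probe sets with a single alpha-globin symbol were not lower: the one for Hba-a2 read 4.81 in PBS on average and differed by 0.09 (adjusted p = 0.793), and the one for Hba-a1 read 5.11 and differed by -0.0059 (adjusted p = 0.981). Globin genes are near-identical copies, so the share of each in these signals is uncertain.

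Of the 8 measured erythroid and platelet markers, Alas2 was called and 7 were not, with a list median of -0.10 against -0.01 for all genes. The list holds Hba-a1 by its dim probe set, and the bright globin probe sets, which have several symbols, are not in it. Slc4a1, the anion exchanger of the red cell membrane, differed by -0.29 ± 0.12 (adjusted p = 0.377), and the platelet chemokine gene Pf4 by -0.60 ± 0.24 (adjusted p = 0.376). In whole tumour RNA, fewer cells of a type and less RNA per cell cannot be told apart.

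**Figure D1:**
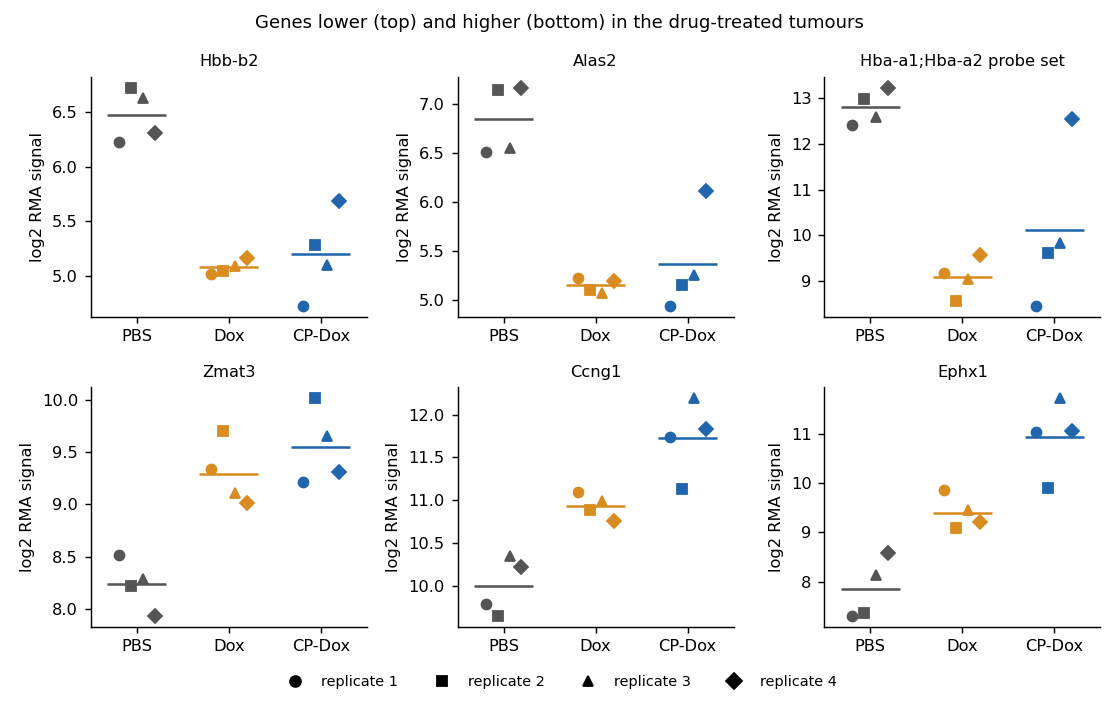
Log2 RMA signal of 6 probe sets (vertical axis) in each tumour of the PBS, Dox and CP-Dox groups (horizontal axis), with symbols for replicates and a line at the group mean. The upper panels show Hbb-b2, Alas2 and an alpha-globin probe set, whose CP-Dox replicate 4 lies at 12.55 among the PBS values, and the lower panels show Zmat3, Ccng1 and Ephx1, whose 8 drug values lie above the PBS values.

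No gene was called higher in the pooled comparison. The 10 with the lowest p among those whose 8 drug and 4 PBS values did not overlap were Zmat3, Chmp1b, Ctla2a, Rassf5, Ccng1, Cpt1a, Rffl, Glipr1, Ephx1 and Vegfd, with adjusted p from 0.0965 to 0.280. In all, 87 genes (0.702%) were higher and 149 (1.2%) lower without overlap, with a median absolute difference of 0.39.

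Zmat3, a p53 target that encodes an RNA-binding protein, had PBS values of 8.52, 8.22, 8.29 and 7.93 and Dox values of 9.34, 9.71, 9.10 and 9.02. Its CP-Dox values were 9.22, 10.02, 9.66 and 9.31. All drug tumours were above all PBS tumours, and the forms overlapped, with a pooled difference of 1.18 ± 0.18 (2.27-fold, adjusted p = 0.0965). CP-Dox minus Dox was 0.26 (95% interval -0.18 to 0.69).

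Ephx1, the microsomal epoxide hydrolase that detoxifies reactive epoxides, had the widest difference of the 10. It read 7.31, 7.38, 8.14 and 8.58 in PBS, 9.86, 9.09, 9.45 and 9.21 in Dox and 11.04, 9.89, 11.71 and 11.05 in CP-Dox. The 3 groups formed 3 separate steps. The pooled difference was 2.31 ± 0.48 (4.96-fold, adjusted p = 0.261), and the 95% interval ran from 1.27 to 3.35.

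Ccng1, cyclin G1, a p53 target, showed the same stepwise order, with 9.79, 9.64, 10.34 and 10.22 in PBS, 11.10, 10.89, 10.99 and 10.76 in Dox, and 11.73, 11.13, 12.19 and 11.83 in CP-Dox. The pooled difference was 1.33 ± 0.26 (adjusted p = 0.210). Among the others, Glipr1 (0.95 ± 0.20) and the lymphatic growth factor gene Vegfd (1.03 ± 0.22) differed by close to 2-fold. Differences of Cpt1a, the gate of fatty acids into mitochondria, and the Ras effector gene Rassf5 were 0.65 ± 0.13 and 0.71 ± 0.14.

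When each form was given its own mean and the drug effect was taken as the average of both minus PBS, an alternative named with the design, 127 probe sets (0.561%) passed (49 higher, 78 lower), or 70 genes (0.565%), 29 higher (0.234%) and 41 lower (0.331%). The difference between the forms then no longer counts as spread, and 48 of the 70 genes had no overlap between drug and PBS. The 70 included Hbb-b2 and Alas2 and all of the 10 genes above (adjusted p from 0.0167 to 0.0434). This count rested on single arrays: it was 0 without PBS replicate 2, 9 and 10 without PBS replicates 3 and 4, 24 to 65 without any 1 of PBS replicate 1, CP-Dox replicates 1 and 3 or the Dox arrays, 81 without CP-Dox replicate 4, and 1253 without CP-Dox replicate 2. Without CP-Dox replicates 1 and 3 together it was 6, all lower. When each array was centred on its median, 29.3% of the calls were higher (41 of 140) against 38.6% here, and the median of all probe sets moved from -0.02 to -0.05.

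Trp53inp1, a stress-induced partner of p53, was among the largest rises of this fit: 7.19, 6.70, 6.95 and 7.52 in PBS, 8.77, 8.14, 8.01 and 8.00 in Dox, and 9.82, 8.54, 10.46 and 9.57 in CP-Dox. Every drug value was above every PBS value, and CP-Dox replicate 2 lay among the Dox values. The average of both forms was 1.82 above PBS (3.53-fold, adjusted p = 0.0269). Vldlr, a receptor for lipoproteins, rose by 1.44 (adjusted p = 0.0251) and Ptpn22, a phosphatase of immune cells, by 1.10 (adjusted p = 0.0347). Falls included Fkbp4, a heat shock cochaperone, by 0.72 (adjusted p = 0.0260), and Nt5dc2 by 0.75 (adjusted p = 0.0454).

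Among these 70 genes CP-Dox minus Dox, signed by the pooled direction, had a median of 0.48, against 0.11 over all genes, and 82.9% had an unadjusted p under 0.05 for the form against 16.2% of all genes. Both measures use the same drug arrays, so this is a description. The difference between the forms was called for 6 of the 70 (0.145% of all genes were called).

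**Figure D2:**
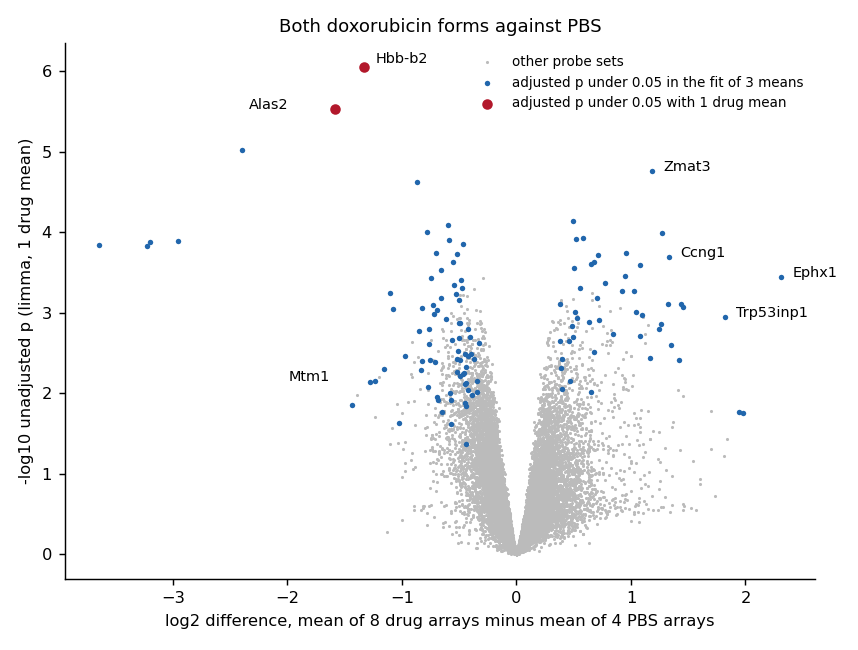
Log2 difference between the mean of 8 drug arrays and the mean of 4 PBS arrays (horizontal axis) against -log10 of the unadjusted p of the fit with 1 drug mean (vertical axis), 1 point per probe set of 22626. Hbb-b2 and Alas2 (large points) passed in that fit, and 127 probe sets passed in the fit of 3 means.

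The ordered trend gave the groups the codes 0 (PBS), 1 (Dox) and 2 (CP-Dox). The codes are not doses. With 4 arrays in each group the slope is CP-Dox minus PBS divided by 2, and the Dox arrays enter only its spread, so differences below are given as CP-Dox minus PBS, with the slope's p. The slope was called for 693 genes (5.59%), 296 higher (2.39%) and 397 lower (3.2%). In probe sets these were 475 higher and 733 lower, 39.3% higher, against 389 and 1064 (26.8%) when arrays were centred on their medians. The median absolute difference of the called genes was 0.58, and 63 risers and 32 fallers reached 2-fold. In probe sets the slope called 1208 (5.34%) with all arrays, 391, 349 and 637 without CP-Dox replicate 1, 3 or 4, 490 without PBS replicate 3, and 3220 without CP-Dox replicate 2. Without CP-Dox replicates 1 and 3 together, the arrays with keratinocyte markers, 28 probe sets were called. Of the 28 gene lists with a call on the slope, 26 then had none, and the others were the p53 arrest and serine lists. That setting keeps only CP-Dox replicates 2 and 4, and replicate 2 is the array that stood apart. Whether the skin content or the smaller group lowered the counts was not tested.

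Full order, with every PBS value on one side of every Dox value and every Dox value on the same side of every CP-Dox value, held upwards for 19 genes (0.153%) and downwards for 40 (0.323%). All of the 19 rose on the slope and 39 of the 40 fell. Ephx1, Ccng1 and Glipr1, described above, rose by 3.07, 1.72 and 1.28 from PBS to CP-Dox, and the 6 largest rises beside them follow. Inhbb, the beta B subunit of activin, rose by 1.54 from PBS to CP-Dox (adjusted p = 0.00279), with 6.83, 6.68, 6.38 and 6.02 in PBS, 6.85, 7.39, 7.03 and 7.12 in Dox, and 7.87, 8.51, 7.88 and 7.79 in CP-Dox. The gap between PBS and Dox in Inhbb was only from 6.83 to 6.85. Its second probe set, at 6.64 in PBS, 6.62 in Dox and 6.67 in CP-Dox, did not pass (slope adjusted p = 0.852). Sulf2, a heparan sulfate sulfatase, rose by 1.43, Plvap, the protein of endothelial diaphragms, by 1.23, Aldh1l1, a folate enzyme that disposes of formyl groups, by 1.02, Ercc5, the nuclease XPG of nucleotide excision repair, by 0.88, and Abhd4, a lipid hydrolase, by 0.70 (adjusted p from 0.00199 to 0.00838). A dim second probe set of Aldh1l1, at 4.93 in PBS and in CP-Dox, did not pass either (slope adjusted p = 0.991).

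Mtm1, a phosphatase of membrane phosphoinositides, had the largest ordered fall, with 11.57, 11.47, 11.43 and 11.53 in PBS, 10.76, 11.05, 11.21 and 10.90 in Dox, and 9.37, 10.20, 8.995 and 9.61 in CP-Dox. It fell by 1.95 (adjusted p = 0.00256). A second bright probe set of Mtm1 also passed (adjusted p = 0.00290), while a dim one, at 5.49 in PBS, differed the other way by 0.37 in the pooled comparison and did not pass. Dnph1, which cleaves deoxynucleotides, fell by 1.22, Phgdh by 1.15, H2ax by 1.12, the Ran exchange factor gene Rcc1 by 1.07 and the amino acid carrier gene Slc7a5 by 1.07.

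Cdk4, chosen after its values were seen, stepped down with small spread: 11.75, 11.80, 11.69 and 11.89 in PBS, 11.52, 11.40, 11.53 and 11.37 in Dox, and 11.17, 11.24, 11.07 and 11.11 in CP-Dox. Its 3 probe sets were all fully ordered. Cdk4 fell by 0.64 from PBS to CP-Dox (adjusted p = 0.00199).

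**Figure D3:**
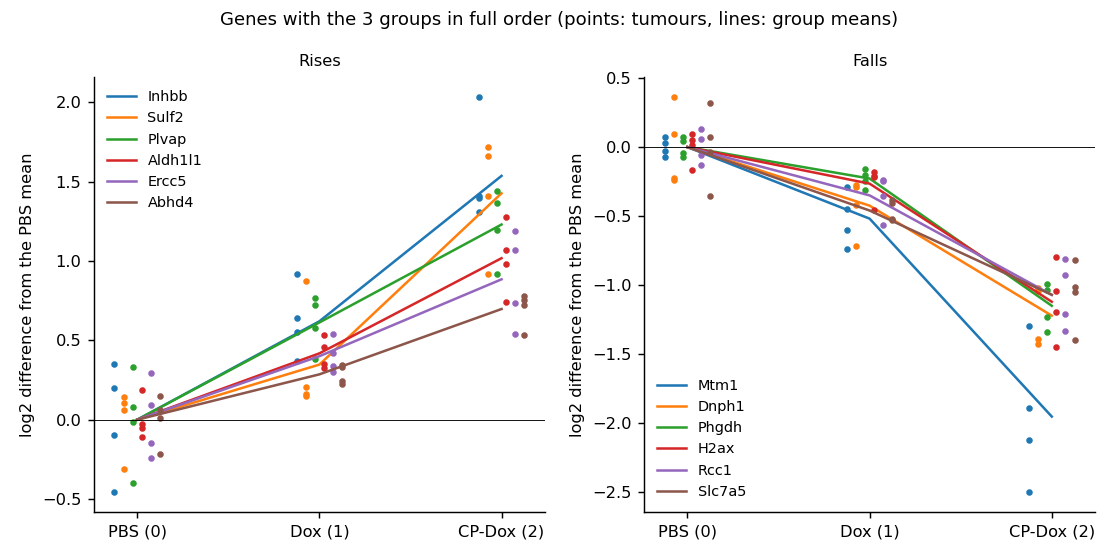
Log2 difference of each tumour from the PBS mean of its gene (vertical axis) for 6 rising and 6 falling genes whose groups are in full order (horizontal axis: PBS, Dox, CP-Dox with codes 0, 1 and 2), with lines through group means. Mtm1 reaches -1.95 at CP-Dox and Inhbb 1.54, and most Dox means lie nearer to PBS than to CP-Dox.

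Whether Dox lay on the line between PBS and CP-Dox was tested as its departure from their midpoint. No probe set was called (limma, lowest adjusted p = 0.957), and 1126 (4.98%) had an unadjusted p under 0.05. Among the 693 genes of the slope, 552 had a Dox mean nearer to PBS and 141 one nearer to CP-Dox. For the departure, 10.1% of them had an unadjusted p under 0.05, against 4.66% of all genes. Signed by the slope, their median departure was -0.079, towards PBS, and that of all genes was -0.043, towards PBS as well. In the called genes that rose the median difference from PBS was 0.24 in Dox and 0.62 in CP-Dox, and in those that fell -0.20 and -0.57. The 4 lowest p of the departure belonged to Chst15, Snrpa1, Hbb-b2 and Alas2. Chst15, a sulfotransferase, read 8.77 to 9.02 in PBS, 8.58 to 8.81 in Dox and 9.13 to 9.32 in CP-Dox, so Dox lay lowest. Snrpa1, a splicing protein, read 9.91 to 10.14 in PBS, 10.05 to 10.24 in Dox and 9.13 to 9.51 in CP-Dox. Hbb-b2 and Alas2 had Dox means slightly below those of CP-Dox, off the line by -0.76 and -0.96.

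The p53 targets of arrest and feedback had the most risers on the slope of the 29 pathway lists: 10 of 25 measured genes rose and 0 fell, against 2.39% and 3.2% of all genes. The list median of drug minus PBS was 0.34, with 0.23 for Dox and 0.55 for CP-Dox. The list mean was higher in all 8 drug tumours (0.13 to 1.14 above the PBS mean) than in any PBS tumour (at most 0.10). The 10 were Aen, Ccng1, Cdkn1a, Ephx1, Mdm2, Phlda3, Rprm, Sesn2, Trp53inp1 and Zmat3. Leaving out each array in turn gave 8 to 12 risers, and 3 were called without CP-Dox replicates 1 and 3 together.

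Cdkn1a itself read 10.18, 10.32, 9.28 and 9.19 in PBS, 10.78, 10.64, 10.37 and 10.19 in Dox, and 11.13, 10.82, 11.61 and 11.42 in CP-Dox. Dox overlapped PBS, and all CP-Dox values were highest. Cdkn1a rose by 1.50 from PBS to CP-Dox (adjusted p = 0.00874), and its pooled difference was 1.12 ± 0.29 (adjusted p = 0.280). Mdm2, the ubiquitin ligase that removes p53, rose by 1.35 on the same comparison (adjusted p = 0.0117), and the stress sensor gene Sesn2 by 0.80 (adjusted p = 0.0148).

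Of 12 p53 targets of cell death, 1 rose on the slope, where 2.39% of all genes rose. Pmaip1, which encodes the death inducer Noxa, read 6.67, 6.46, 5.94 and 6.12 in PBS, 6.23, 5.97, 6.17 and 6.72 in Dox, and 8.68, 7.55, 8.24 and 8.05 in CP-Dox. Dox and PBS overlapped and CP-Dox lay above both, with CP-Dox minus Dox at 1.86 (95% interval 1.33 to 2.38, adjusted p = 0.0279). That difference lost its call in 6 of 21 alternatives, among them leaving out CP-Dox replicate 1 or 3 or Dox replicate 1, 2 or 3 (adjusted p up to 0.135). Apaf1, the core of the apoptosome, had a pooled difference of 0.41 ± 0.14 (adjusted p = 0.329). The Pmaip1 slope lost its call without CP-Dox replicate 1 or 3 or PBS replicate 3.

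Genes of DNA replication and S phase were lower: all 38 measured genes had a pooled difference below 0 (median -0.44), against 53.7% of all genes. On the slope 9 fell (3.2% of all genes), 0 rose and 29 did not pass. The list mean relative to PBS was -1.435 for CP-Dox replicate 2 and between -0.37 and -0.41 for the other CP-Dox tumours. In Dox it was -0.04, -0.57, -0.06 and -0.20, so that Dox replicates 1 and 3 lay within the PBS range of -0.07 to 0.07. The number of fallers was 3 to 5 without CP-Dox replicate 1, 3 or 4 or PBS replicate 1 or 3, and 12 without CP-Dox replicate 2. For 6 of the 38 (against 1.2% of all genes) the drug values lay below PBS without overlap. Pold2, a subunit of DNA polymerase delta, read 10.22, 10.23, 10.26 and 10.37 in PBS, 10.01, 9.55, 10.08 and 9.95 in Dox and 9.40, 9.34, 9.41 and 9.48 in CP-Dox, and fell by 0.86 (adjusted p = 0.00248). E2f1, the factor that drives S phase genes, fell by 0.65 (adjusted p = 0.0150), while its second probe set did not pass (slope adjusted p = 0.118). Pola2 and Dbf4, of the primase complex and of origin firing, were lower without overlap but did not pass (CP-Dox minus PBS -0.47 and -0.57).

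Of the 14 genes of deoxynucleotide supply and uracil removal, 5 fell on the slope, against 3.2% of all genes. Ung fell by 1.80, Dctpp1 by 1.41, Tk1 by 1.39, Dut by 0.93 and Nme1 by 0.71. Ung, the enzyme that cuts uracil out of DNA, read 8.03, 7.88, 8.17 and 8.25 in PBS, 7.93, 7.35, 8.05 and 7.96 in Dox, and 6.17, 5.94, 6.45 and 6.58 in CP-Dox. Dox overlapped PBS, and all CP-Dox values lay below both. CP-Dox minus Dox was -1.54 (95% interval -1.92 to -1.16, adjusted p = 0.0180), a call lost without CP-Dox replicate 1 or 3 or Dox replicate 1 or 3 (adjusted p up to 0.115).

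Of 31 mitosis genes 30 had a pooled difference below 0 (median -0.39), and 2 (6.45%, against 3.2% of all genes) fell. They were the cyclin gene Ccna2 (CP-Dox minus PBS -1.08) and the mitotic transcription factor gene Foxm1 (-0.85). A second bright probe set of Ccna2 did not pass (slope adjusted p = 0.117). CP-Dox replicate 2 was the lowest array for this list, and without it 7 fell. Without CP-Dox replicate 1, 3 or 4, any Dox array, or PBS replicate 1, 2 or 3, the count was 1, a share (3.23%) at the level of all genes. Top2a, the target of doxorubicin, read 10.41 to 11.44 in PBS, 10.60 to 11.03 in Dox, and 11.26, 8.96, 11.08 and 11.17 in CP-Dox. Its pooled difference was -0.28 ± 0.36 (adjusted p = 0.783). The proliferation marker Mki67 had a difference of -0.50 ± 0.30 (adjusted p = 0.540), with CP-Dox replicate 2 at 7.78 and all other drug arrays at 9.27 or above.

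Among 26 genes of DNA repair and the checkpoint, 5 fell on the slope, against 3.2% of all genes, and 0 rose. The fallers were Apex1, H2ax, Parp1, Xrcc1 and Xrcc6. The count was 3 without CP-Dox replicate 1, CP-Dox replicate 4 or PBS replicate 3. Ercc5, the repair nuclease gene named above, is not in this list and rose in full order. H2ax, the histone that is phosphorylated at DNA breaks, read 10.99, 10.95, 10.91 and 10.73 in PBS, 10.68, 10.44, 10.67 and 10.71 in Dox, and 9.85, 9.44, 9.70 and 10.09 in CP-Dox. Each group lay below the one before it without overlap, PBS and Dox only narrowly. CP-Dox minus Dox was -0.86 (95% interval -1.14 to -0.57, adjusted p = 0.0382). It lost its call in 12 of 21 alternatives, among them leaving out CP-Dox replicate 1 or 3, any Dox array or PBS replicate 1, 2 or 3 (adjusted p up to 0.155).

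Serine synthesis and one-carbon enzymes had the lowest median of the 29 pathway lists, -0.57, with -0.17 for Dox and -0.91 for CP-Dox. Of 12 measured genes 8 fell and 2 rose on the slope, against 3.2% and 2.39% of all genes. Phgdh, the first enzyme of serine synthesis, read 11.22, 11.19, 11.34 and 11.31 in PBS, 11.10, 10.95, 11.02 and 11.06 in Dox and 10.03, 10.22, 9.92 and 10.27 in CP-Dox, so that the groups were in full order with most of the distance between Dox and CP-Dox. CP-Dox minus Dox was -0.92 (95% interval -1.12 to -0.73, adjusted p = 0.00714), the lowest adjusted p of that comparison, and the call was lost without CP-Dox replicate 1 or Dox replicate 1 or 3 (adjusted p up to 0.0609). The other fallers were Psat1, Shmt1, Shmt2, Mthfd1, Mthfd2, Gcsh and Ahcy (CP-Dox minus PBS from -0.61 to -1.20).

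The 2 enzymes that rose were Aldh1l1, by 1.02, and Gldc, of the glycine cleavage system, by 1.17. Gcsh, of the same system, fell by 0.92. The risers numbered 1 without CP-Dox replicate 1 or 3 or PBS replicate 2, 3 or 4. Fallers numbered 4 or 5 without CP-Dox replicate 1, 3 or 4 or PBS replicate 1 or 3, and 2 remained in number without CP-Dox replicates 1 and 3 together.

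Of 29 genes of ribosome biogenesis, 28 had a pooled difference below 0 (median -0.28) and 11 fell on the slope. Of all genes, 53.7% were below 0 and 3.2% fell. The list median was -0.08 in Dox and -0.45 in CP-Dox. Nop16 fell by 0.81, Wdr12 by 0.68, Nop10 by 0.67 and Rrp9 by 0.52, all of them factors of ribosomal RNA processing. Rrp9 was the member in full order, with 9.37 to 9.48 in PBS, 9.19 to 9.30 in Dox and 8.78 to 9.02 in CP-Dox. The count was 4 to 7 without CP-Dox replicate 1, 3 or 4 or PBS replicate 3, 16 without CP-Dox replicate 2 and 18 without PBS replicate 4. None of the 27 cytosolic ribosomal protein genes was called (median -0.07). Mitochondrial ribosomal protein genes, 33, had 4 fallers (median -0.19) and purine and pyrimidine synthesis, 14 genes, had 5 (median -0.28), and both counts were 2 or fewer without CP-Dox replicate 1, 3 or 4 or PBS replicate 3. Without PBS replicate 1 the counts were 2 and 3, and without CP-Dox replicate 2 they were 8 and 6. The Myc, Max and Mxd network, 13 genes, had a median of 0.04 and 1 faller, Mxd3, against 3.2% of all genes. That call was lost without CP-Dox replicate 4 or PBS replicate 3.

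Lysosome, proton pump and autophagy genes were higher: 33 of 35 had a pooled difference above 0 (median 0.26) and 9 rose on the slope. Of all genes, 46.3% were above 0 and 2.39% rose. The list mean was 0.11 to 0.15 above PBS in the Dox tumours and 0.24 to 0.45 in the CP-Dox tumours, against at most 0.07 in any PBS tumour. The proton pump subunits Atp6v1b2, Atp6v1a, Atp6v1h, Atp6ap1 and Atp6v0d1 rose by 0.37 to 0.59 from PBS to CP-Dox, and Wipi1, a protein of forming autophagosomes, by 0.75. The other probe sets of Wipi1 did not pass (slope adjusted p from 0.0784 to 0.494). The number of risers was 18 without CP-Dox replicate 2, 6 without PBS replicate 4, and 0 to 2 without CP-Dox replicate 1, 3 or 4 or PBS replicate 3.

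Among stress genes, 5 of 23 in the ATF4 list rose and 2 fell, against 2.39% and 3.2% of all genes. The risers were Ddit3, Ddit4, Nupr1, Sesn2 and Vldlr and the fallers Slc7a5 and Trib3, with a list median of -0.12. The risers numbered 1 to 3 without CP-Dox replicate 1 or 3, Dox replicate 1 or 3, or PBS replicate 1, 2 or 3, and without CP-Dox replicate 2 the list had 7 risers and 8 fallers. Tfrc, the transferrin receptor, read 10.16, 10.43, 10.26 and 9.58 in PBS, 9.06, 9.79, 9.39 and 9.43 in Dox, and 7.57, 9.33, 7.14 and 8.00 in CP-Dox. It fell by 2.10 on the slope (adjusted p = 0.0110), though PBS and Dox overlapped. The metallothionein genes Mt1 and Mt2 had pooled differences of 0.93 ± 0.30 and 0.78 ± 0.21, with adjusted p of 0.316 and 0.280. Abcb1a and Abcb1b, which encode pumps that export doxorubicin, differed by 0.34 ± 0.17 and 0.22 ± 0.13 (adjusted p = 0.463 and 0.537). Txnip, a regulator of redox state and glucose uptake, had a pooled difference of 0.83 ± 0.44 (adjusted p = 0.488), with CP-Dox replicate 2 at 9.29 and the other CP-Dox tumours at 11.15 to 12.17.

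Markers of host cells moved with these groups. Of 12 mast cell markers, 9 rose on the slope, against 2.39% of all genes. Among them were Hdc, which makes histamine (by 1.73), Tph1 (by 2.29), the receptor gene Kit (by 1.36) and the protease gene Cpa3 (by 1.61). The mast cell list mean was 0.95 to 1.57 above PBS in the CP-Dox tumours and -0.18 to 0.93 in the Dox tumours, against -0.39 to 0.27 in PBS. Of 16 endothelial markers 3 rose, Plvap, Pecam1 and Emcn, and that count was 3 or 4 without any 1 array but 0 without CP-Dox replicates 1 and 3 together, as it was for the mast cell markers. The count of mast cell markers was 4 without CP-Dox replicate 1 or 3 and 6 without CP-Dox replicate 4, and 10 without replicate 2. Their part in the results above was not tested.

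Adipocyte markers had 3 risers of 9, Cd36, Lipe and Lpl, where 2.39% of all genes rose. Their count was 0 or 1 without CP-Dox replicate 1, 3 or 4, and 2 without PBS replicate 1, 2 or 3. Of 12 neutrophil markers 2 rose, S100a8 and Lcn2. Dox replicate 4 stood high in S100a8, at 10.50 against 8.17 to 8.34 in the other Dox tumours, and neither marker was called without CP-Dox replicate 1, 3 or 4 or PBS replicate 2, 3 or 4. The list had 1 riser without PBS replicate 1 and 6 without CP-Dox replicate 2. Dcn was the riser of the 16 fibroblast and pericyte markers, by 0.52, and not without CP-Dox replicate 1 or 3.

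Several lists had raised medians without a call. The 31 interferon genes had a median of 0.40 and 0 calls. Their array means ran from -0.29 to 0.63 in PBS and from -1.68 to 1.51 in CP-Dox, and without CP-Dox replicate 2 the slope was called for 25 of them, all higher. The 18 keratinocyte markers had a median of 0.88 and 0 calls, and the 21 T and natural killer cell, 21 macrophage and 18 antigen presentation genes had medians of 0.24, 0.20 and 0.29 with 0 calls. Without CP-Dox replicate 2 these last 3 lists had 6, 7 and 5 risers, and the macrophage list 1 faller. Skeletal muscle markers had 0 calls of 19, and with their mean as a covariate the slope called 956 probe sets.

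**Figure D4:**
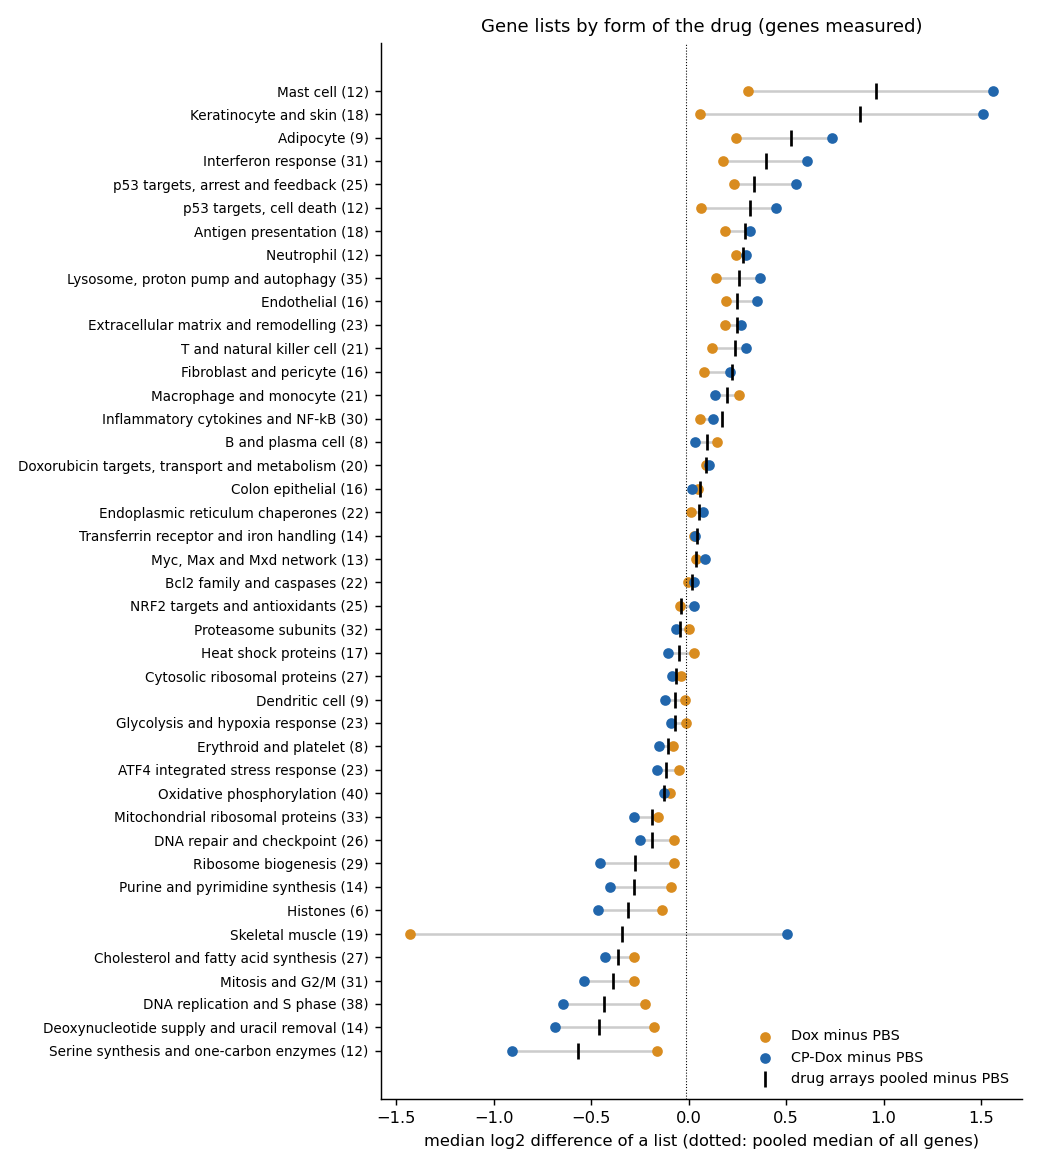
Median log2 difference (horizontal axis) of the genes of each of 42 lists (vertical axis, genes measured in brackets) for Dox minus PBS, CP-Dox minus PBS and the pooled drug arrays minus PBS. In the p53 arrest list the medians are 0.23 and 0.55 and in the serine list -0.17 and -0.91, while the skeletal muscle medians lie on opposite sides of 0.

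The promoter windows, from 250 bases before to 50 after the start and searched on both strands, were found for 9887 of the 12393 genes. An E2F site, spelled TTTCCCGC or TTTGGCGC, was present in 7.32% of the 328 windows of genes that fell on the slope, in 1.27% of the 236 windows of genes that rose and in 2.67% of all windows. In the DNA replication list it was in 9 of 31 windows (29.0%). The E-box CACGTG was in 13.1% of windows of fallers, 11.0% of risers and 9.33% of all, and in 5 of 25 ribosome biogenesis windows (20.0%). CCAAT was in 44.2%, 39.0% and 38.1%, and the CARE motif TGATGNAA in 2.74%, 2.54% and 2.62%. The p53 element, its paired consensus motif with 0 to 13 bases between the parts, was in 4 windows of all (0.0405%), of which Cdkn1a was the 1 among the risers. A GATA site (GATA with A or T before it and A or G after it, added after the other motifs) was in 15.5% of fallers, 22.5% of risers and 21.4% of all. The motifs were described without a test, and a match shows letters only.

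**Figure D5:**
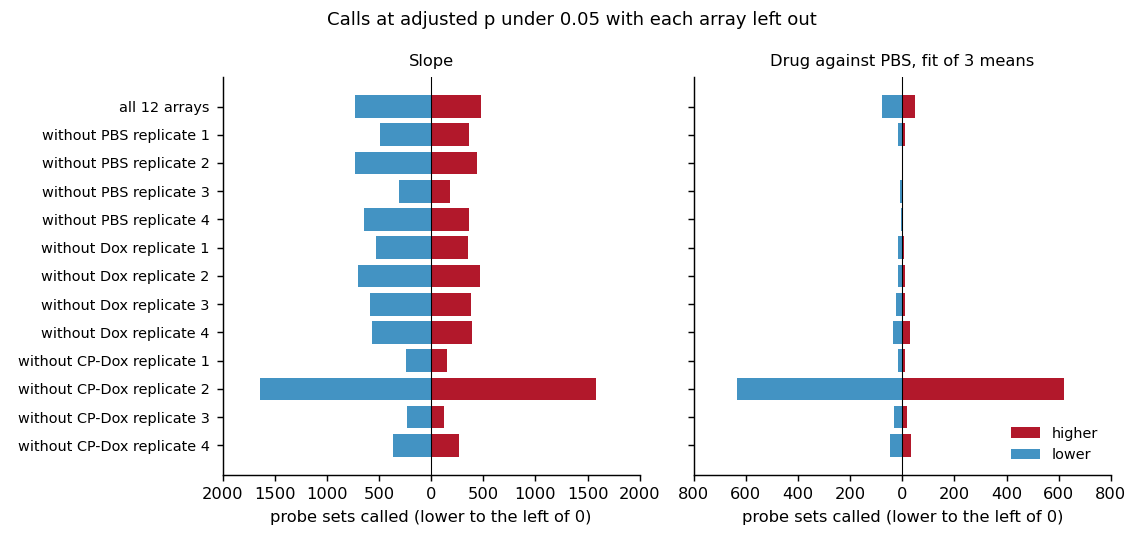
Number of probe sets called at adjusted p under 0.05 (horizontal axis, lower calls to the left of 0 and higher calls to the right) with all 12 arrays and with each array left out (vertical axis), for the slope and for drug against PBS in the fit of 3 means. Without CP-Dox replicate 2 the totals are 3220 and 1253, against 1208 and 127 with all arrays.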

How the data were processed

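The deposited values are log2 signals of Affymetrix mouse arrays, which the authors computed by RMA (background correction, normalization between arrays and a summary of each probe set). RMA and Partek are named in the submitters' processing notes, with versions not given in the sources used here. RMA makes the distributions of the arrays alike, so a shift of most genes in 1 direction would be hidden. Groups came from the sample titles, which number separate mice. Control probe sets (64 of 22690) were left out. Symbols came from the platform annotation: 20380 probe sets had 1 symbol, 691 several and 1555 none. Of those with a symbol, 20351 had an identifier in the RefSeq table of GRCm38.p6 and 0 symbols changed.

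Models were fitted with limma 3.58.1 (lmFit, eBayes) in R 4.3.3 to all 22626 remaining probe sets. They were 1 drug mean against 1 PBS mean, a slope on the codes, and a fit of 3 means for the form difference, the departure of Dox and an alternative pooled contrast. The first 2 were also run on simulated arrays with independent noise. No simulated array stood apart from its group, so that run does not cover arrays such as CP-Dox replicate 2. Tests are two-sided, and called means an adjusted p (Benjamini-Hochberg) under 0.05. Figures used Python 3.11.15, pandas 2.3.3 and matplotlib 3.10.9. The number of arrays, 4 a group, limits the precision (median SE of the pooled difference 0.118).

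The members, the 42 gene lists (29 pathways, 13 cell types, 856 of 974 distinct genes measured), the rule for naming genes and the tests were chosen with earlier results of these data known. By that rule the pooled comparison names up to 10 genes in each direction that were called without overlap, or the 10 lowest p, the trend names the 6 largest fully ordered rises and falls not yet named, the departure the 4 lowest p and a list up to 4 members with the lowest pooled p, beside Cdkn1a, Mdm2, Ccng1, Top2a, Mki67, Txnip, Abcb1a and Abcb1b. Further list members are named where they were called on the slope. A call is that of the brightest probe set, and other probe sets of a called gene did not always pass, as for Apex1, Atp6v1a and Wdr12. Alternatives were quantile normalization, median centring, a filter of the dimmest 40%, 1 probe set per gene, other variance models, array weights, a replicate block, a muscle covariate and left-out arrays.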

Additional observations from a re-analysis of the deposited data

Results flagged for a closer look

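Within single groups of 4 tumours, the array farthest from the others was flagged where its gap to the nearest value took up more of the group's range than Dixon's 95% critical value, which chance passes in about 1 of 20 groups. Of 384 such tests (96 genes, each in the 3 groups and over the 8 drug arrays), 19 passed, and they are listed as values only. That total is about the number that chance gives, but most of the 19 were CP-Dox replicate 2. The 8 drug arrays also mix both forms, and the tests share arrays, so the total does not measure chance. CP-Dox replicate 2 was such an array for Abcb1b (0.979 of the range, low), Dut (0.938, low), Top2a (0.923, low), Inhbb (0.865, high) and Aprt (0.845, high). Dox replicate 2 was high for Sulf2 (0.926) and low for H2ax (0.850), Dox replicate 1 was high for Atp6v1a (0.935) and Vegfd (0.900), and Dox replicate 4 was high for S100a8 (0.926). PBS replicate 3 was low for Rffl (0.853) and PBS replicate 1 high for Wipi1 (0.867). Over the 8 drug arrays, CP-Dox replicate 2 stood lowest for Mki67 (0.726), Top2a (0.711), Dbf4 (0.597), Ccna2 (0.582), Cenpa (0.529) and Foxm1 (0.529), and CP-Dox replicate 4 highest for Alas2 (0.732).

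The forms differed, by the test of CP-Dox minus Dox, in Pmaip1 (1.86, adjusted p = 0.0279 with limma), Chst15 (0.55, 0.0435), Ung (-1.54, 0.0180), Mtm1 (-1.44, 0.0370), Phgdh (-0.92, 0.00714), H2ax (-0.86, 0.0382), Snrpa1 (-0.82, 0.0224) and Xrcc6 (-0.57, 0.0370). These calls depended on single arrays: of 21 alternatives the call was lost in 13 for Chst15, 12 each for H2ax, Mtm1 and Xrcc6, 6 for Pmaip1, 5 each for Ung and Snrpa1 and 4 for Phgdh. Without CP-Dox replicates 1 and 3 together none of the 8 passed (adjusted p from 0.184 to 0.564).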

How the results depend on the processing

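Signs were checked for pooled differences of the named genes, except Chst15 and Snrpa1, and for their slope and form differences that were called. None of these changed sign under an alternative that was run, and losses of a call came mainly from leaving arrays out. Slope and form differences that were not called were not checked. The pooled comparison (2 calls) gave 127 as a contrast in the fit of 3 means, 0 without the dimmest 40% of probe sets, 0 without CP-Dox replicates 1 and 3 together, 1 with the muscle covariate, and 0 to 7 with 1 array left out. The filter of the dimmest 40% takes out Hbb-b2 and Alas2 themselves, so it could not test their calls. The slope (1208) gave 710 with 1 probe set per gene, 3345 with array weights, 28 without CP-Dox replicates 1 and 3 together, and 349 to 3220 with 1 array left out. The fit of 3 means (127) gave 67 with 1 probe set per gene, 783 with array weights, 6 without those 2 arrays, 76 with the muscle covariate, and 0 to 1253 with 1 array left out. CP-Dox against Dox (34) gave 91 after quantile normalization, 81 after median centring, 62 without the dimmest 40%, 2879 with array weights, 0 without those 2 arrays, 53 with the muscle covariate, and 0 to 2043 with 1 array left out. The departure of Dox gave 0 under each. Testing 1 probe set per gene tests fewer probe sets, and CP-Dox replicate 2 had the lowest estimated array weight (0.314 in the slope, 0.253 in the fit of 3 means). The cause of these and the other changes was not tested.

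The labels do not say that equal replicate numbers mark a shared source, and not every same-numbered pair correlated above 0.1, so the numbers were not taken as pairs. Deviations of same-numbered arrays correlated from -0.266 to 0.511 (median 0.18), over 0.1 in 8 of 12 pairs, and 6 of 12 arrays correlated best with their own number. All 3 pairs of number 1 (0.152 to 0.249) and of number 4 (0.311 to 0.438) were over 0.1, a hint from the data and not from the design. With the replicate block the pooled comparison called 3, the slope 1671, the fit of 3 means 231 and CP-Dox against Dox 14.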
